A study of Homo sapiens with 9 samples.

Results

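The genes described here are 29 established target genes of the transcription factor p53, listed by symbol with no threshold on a measured value but with earlier results of these data known. All 29 were found among the 57736 rows of the gene tables and among the 14614 genes tested. Their RNA was measured in SKMEL-147, a human melanoma cell line, in 9 libraries. The cells of all 9 libraries carried Cas9 from a lentivirus selected with blasticidin, and then received a second lentivirus that expressed GFP and a single guide RNA (sgRNA). The control cells carried a scrambled guide, sgScr, and the other cells carried sgPHF8-1 or sgPHF8-3, which cut PHF8 at different sites. There were 3 libraries, named A, B and C, per guide. The cells were transduced populations and not single clones, so edited and unedited copies of PHF8 were read together. According to the study the libraries were biological replicates, but the sources used here do not say whether each came from its own transduction, so the p-values measure the spread among these libraries. The question asked was how the p53 target genes stood with each guide, and whether the 2 guides differed.

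p53 is a DNA-binding protein that is kept low by the ubiquitin ligase MDM2 and its partner MDM4, and accumulates after DNA breaks, nucleolar stress and other insults. It binds a response element near its targets and raises their transcription. The targets stop the cell cycle, start apoptosis, repair DNA or adjust metabolism, and several of them, MDM2 among them, feed back to switch p53 off. PHF8 is a histone demethylase encoded on the X chromosome that removes methyl groups from histone tails, and it is found at active promoters.

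The sites of the guides are shown because the comparison turns on them. Both sequences are given 5′ to 3′ as they stand in the genome, build GRCh37, on the guide's strand, with the 3 bases of the protospacer-adjacent motif (PAM), which Cas9 needs beside its target, in capitals. PHF8 lies on the minus strand. The site of sgPHF8-1 is at chrX:54069090-54069112 on the plus strand and lies in exon 2 of the 22 exons of PHF8. The site of sgPHF8-3 is at chrX:53966769-53966791 on the minus strand and lies in exon 21.
sgPHF8-1: gtcacactcgatcatgaagcGGG
sgPHF8-3: tcctcctgagcctaaacaagAGG

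PHF8 itself was measured first. Its normalised read counts were 655, 606 and 634 in the sgScr libraries A, B and C, 564, 571 and 565 with sgPHF8-1, and 399.8, 387 and 434 with sgPHF8-3. The 3 groups did not overlap, and the level was lowest with sgPHF8-3. The log2 fold change against sgScr was -0.16 ± 0.054 (adjusted p = 0.0272) with sgPHF8-1 and -0.63 ± 0.057 (adjusted p = 6.36e-09) with sgPHF8-3, and PHF8 RNA was higher with sgPHF8-1 than with sgPHF8-3 (0.48 ± 0.058, adjusted p = 3.86e-06). The sgPHF8-1 value missed the threshold in DESeq2 (adjusted p = 0.126) and without sgScr library A or C or sgPHF8-1 library A or C (-0.16 to -0.13, adjusted p 0.0572 to 0.118). The part of this unequal PHF8 level in the differences between the guides was not tested. In these bulk RNAs fewer edited cells and less PHF8 RNA per edited cell cannot be told apart, and RNA from an edited gene may still be read. The study reported by Western blot that both guides depleted PHF8 protein efficiently in SKMEL-147, which these RNA counts do not measure. The libraries held between 17366120 and 19838142 counted reads. The melanoma and neural crest factor SOX10 was present at 2771 ± 60.4 (SD, n = 3) normalised counts on average in sgScr and the dedifferentiation marker AXL at 27921 ± 178 (SD, n = 3), whereas the pigment cell genes PMEL, MLANA, TYR and DCT were at or near 0, so the defining markers of pigmented melanocytes were absent from this line. Of the 8 melanoma and melanocyte markers, 2 passed the filter on low counts, SOX10 and MITF. The other 6, the melanoma markers S100B and S100A1 among them, did not. Of the 8 markers of other cell types, KRT14, an epithelial keratin, alone passed the filter on low counts. It had 40.0 ± 3.55 (SD, n = 3) normalised counts with sgScr, 18.8 ± 7.27 (SD, n = 3) with sgPHF8-1 and 21.4 ± 6.37 (SD, n = 3) with sgPHF8-3, and was lower with sgPHF8-1 (-1.10 ± 0.25, adjusted p = 0.00129) and with sgPHF8-3 (-0.90 ± 0.24, adjusted p = 0.0092) than with sgScr on the log2 scale. The sgPHF8-3 call was lost without sgScr library B (adjusted p = 0.0501). Of the 3 dedifferentiation markers, the neural crest receptor NGFR was lower with sgPHF8-1 (-0.70 ± 0.033, adjusted p = 8.85e-15) and with sgPHF8-3 (-0.29 ± 0.033, adjusted p = 3.08e-07). The transcription factor SOX9 was higher with sgPHF8-1 (0.25 ± 0.076, adjusted p = 0.0129), a call lost in DESeq2 (adjusted p = 0.0602) and without sgScr library C (adjusted p = 0.0973), and stood at 0.081 ± 0.077 (adjusted p = 0.514) with sgPHF8-3. AXL was at -0.015 ± 0.026 (adjusted p = 0.726) with sgPHF8-1 and at 0.066 ± 0.026 (adjusted p = 0.0814) with sgPHF8-3, and the latter passed in DESeq2 (adjusted p = 0.0383) and without sgPHF8-1 library B (adjusted p = 0.0225). SOX10 was lower with sgPHF8-1 (-0.18 ± 0.032, adjusted p = 7.85e-05) and with sgPHF8-3 (-0.11 ± 0.032, adjusted p = 0.0123). The sgPHF8-3 call for SOX10 was lost without sgScr library A or sgPHF8-3 library A or B (-0.11 to -0.10, adjusted p 0.0512 to 0.073). MITF, the pigment cell transcription factor and the other lineage marker tested, was at -0.14 ± 0.085 (adjusted p = 0.216) with sgPHF8-1 and 0.14 ± 0.082 (adjusted p = 0.251) with sgPHF8-3. Between the guides, NGFR (-0.41 ± 0.033, adjusted p = 6.65e-09), MITF (-0.28 ± 0.085, adjusted p = 0.0306) and AXL (-0.081 ± 0.027, adjusted p = 0.049) were lower with sgPHF8-1, while SOX10 stood at -0.069 ± 0.033 (adjusted p = 0.196), SOX9 at 0.17 ± 0.076 (adjusted p = 0.166) and KRT14 at -0.20 ± 0.29 (adjusted p = 0.737). This call was lost for MITF in DESeq2 and without sgPHF8-1 library C or sgPHF8-3 library A or C (-0.28 to -0.20, adjusted p 0.0668 to 0.166), and for AXL in 13 of 15 alternatives (adjusted p 0.0567 to 0.195), the replicate block, with the library's letter as a term, among them (adjusted p = 0.0591). The part of these markers in the values of the p53 targets was not tested.

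The DNA that p53 is known to bind was then read around the members' start sites, since binding to it defines a direct target. The p53 response element is a pair of adjacent decamers. Each window of 5000 bases to either side of the start of a gene's canonical transcript was searched in GRCh37 for the full element without a spacer, with the core of both decamers intact and at most 2 mismatches elsewhere; the consensus reads the same on both strands. Such a match was found in 12 of the 28 members that could be scanned (42.9%), against 607 of the 12052 tested protein-coding genes with a canonical transcript (5.04%). The members were chosen as established targets of p53, so their excess of matches is no test of the list. With no mismatch the counts were 2 members (7.14%) and 19 genes (0.158%). A match is a string of letters and not evidence of binding in these cells.

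The matches of CDKN1A, BTG2, GADD45A, PLK2, ZMAT3 and AEN are shown as examples, with the cores in capitals and written 5′ to 3′ on the gene's strand. Those of the other members with a match, CCNG1 and TNFRSF10B among them, are not written out. That of CDKN1A is at chr6:36644226-36644245, at -2256 bases from the start of its canonical transcript and overlapping the first exon of a longer one. That of BTG2 is at chr1:203272770-203272789, at -1868 bases, upstream of the gene. That of GADD45A is at chr1:68152458-68152477 in an intron, 1584 bases after the start, with 1 mismatch. That of PLK2 is at chr5:57758101-57758120, at -2198 bases, upstream on the minus strand, with 0 mismatches. That of ZMAT3 is at chr3:178787976-178787995 in an intron, 1612 bases after the start on the minus strand, also with 0 mismatches, and that of AEN is at chr15:89164537-89164556, at -24 bases.
CDKN1A: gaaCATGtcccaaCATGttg
BTG2: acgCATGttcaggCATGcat
GADD45A: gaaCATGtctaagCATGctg
PLK2: aaaCATGcctggaCTTGccc
ZMAT3: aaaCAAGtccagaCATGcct
AEN: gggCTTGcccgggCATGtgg

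**Figure D1:**
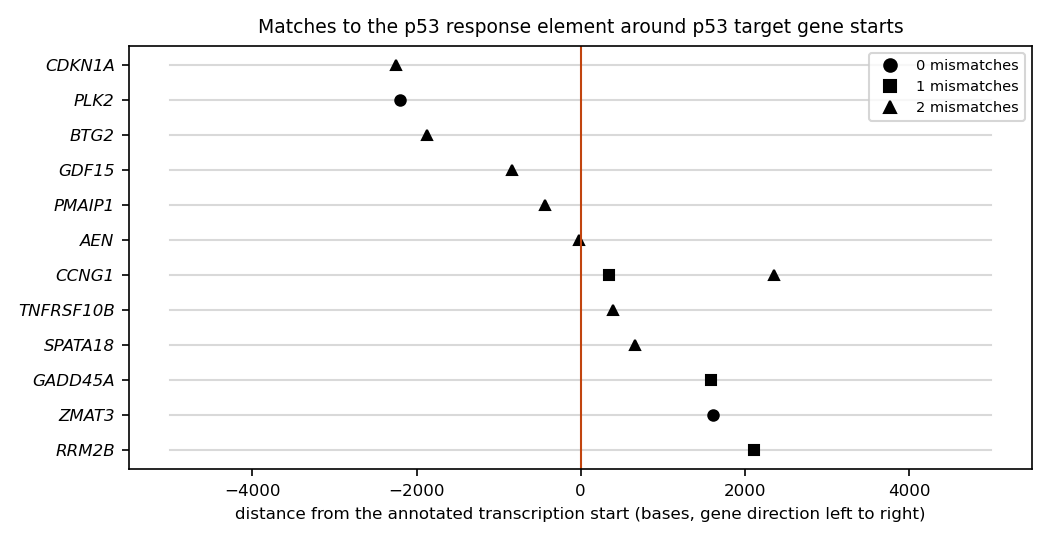
Position of each match to the p53 response element around the annotated transcription start of the 12 members that have one, with the distance from the start in bases on the horizontal axis and the gene's direction running left to right; the symbol gives the number of mismatches to the consensus. PLK2 and ZMAT3 carry a match with 0 mismatches, and CCNG1 has 2 matches.

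With sgPHF8-1, 17 of the 29 members differed from sgScr at an adjusted p under 0.05, 16 of them higher and 1 lower. Over all genes tested, 30.9% were called in that comparison, 15.2% higher and 15.7% lower. With sgPHF8-3, 11 members differed from sgScr, 6 higher and 5 lower, against 19.3% of all genes, 9.48% higher and 9.78% lower. The comparison of the guides with each other called 17 members, 14 of them higher with sgPHF8-1 and 3 lower, against 10.6% of all genes, 4.74% higher and 5.83% lower. The sgScr libraries entered that comparison through the filter on low counts, the scaling and the spread estimated over the 3 groups. It called 14 members when the guides were fitted alone and 16 without sgScr library A. The libraries were also compared without a model, by whether the 3 of one group lay wholly above or below the 3 of another. With sgPHF8-1 17 members lay wholly above sgScr and 2 below (21.1% and 21.1% of all genes), with sgPHF8-3 7 lay above and 8 below (18.7% and 17.8%), and between the guides 17 lay above with sgPHF8-1 and 3 below (12.4% and 13.0%). The values that follow are log2 fold changes ± the standard error of the fit, with 3 libraries per group. The median log2 fold change of the members was 0.21 with sgPHF8-1, -0.030 with sgPHF8-3 and 0.16 between the guides. Between the guides the median of all genes was 5.98e-04, and the middle 50% of single genes lay from -0.09 to 0.085. That band describes single genes and not the spread of a list's median. The changes were small: apart from GDF15, which had few reads, no member differed by more than 53.8% between groups, the value of BTG2 between the guides. Both comparisons with sgScr use the same 3 control libraries, so they are given side by side and not set against each other. The call of a difference between guides rests on the direct comparison.

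**Figure D2:**
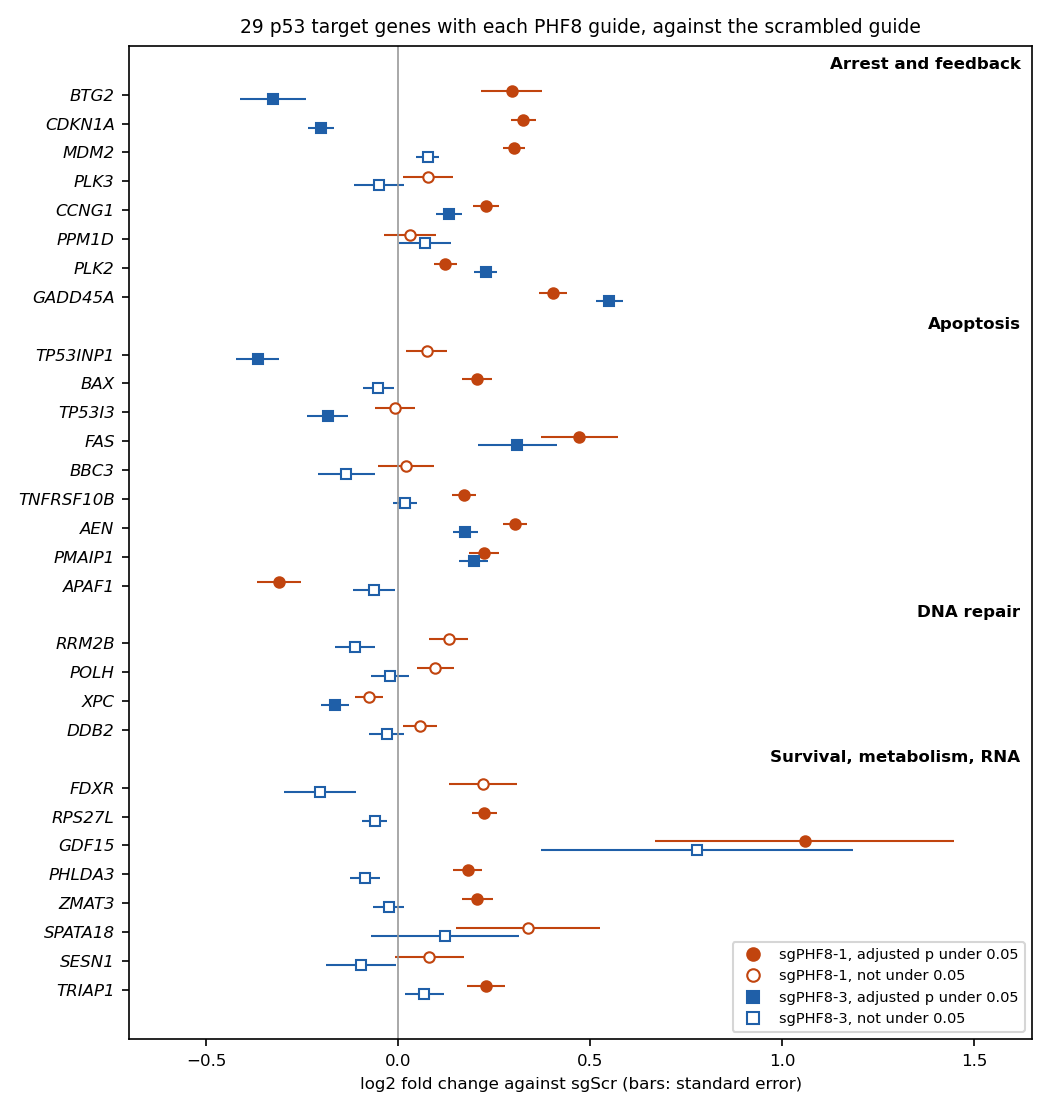
Log2 fold change of each of the 29 members against sgScr (horizontal axis) with sgPHF8-1 (circles) and sgPHF8-3 (squares), grouped by role; bars are standard errors from the edgeR fit, filled symbols have an adjusted p under 0.05, and both guides share the 3 sgScr libraries. CDKN1A and BTG2 lie on opposite sides of 0 with the 2 guides, and GADD45A, PLK2, CCNG1, AEN, PMAIP1 and FAS lie above 0 with both.

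Among the 8 members of cell cycle arrest and feedback, CDKN1A and BTG2 were called in opposite directions with the 2 guides, and GADD45A, PLK2 and CCNG1 were higher with both. CDKN1A, at chr6:36644237-36655114 on the plus strand, encodes p21, the inhibitor of cyclin-dependent kinases that carries out most of the arrest by p53. Its normalised counts were 4204, 4340.0 and 4350.2 with sgScr, 5233, 5597 and 5328 with sgPHF8-1 and 3861, 3751 and 3604 with sgPHF8-3. Every sgPHF8-1 library was above every sgScr library, and every sgPHF8-3 library was below them. CDKN1A was higher than in sgScr with sgPHF8-1 (0.32 ± 0.033, adjusted p = 1.70e-08) and lower with sgPHF8-3 (-0.20 ± 0.033, adjusted p = 8.32e-05). Between the guides the log2 difference was 0.53 ± 0.033 (adjusted p = 4.68e-11).

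BTG2, an antiproliferative factor that promotes the shortening of messenger RNA tails, had the largest called difference between the guides of the 29. The counts were 217, 193 and 203 with sgScr, 250.0, 254 and 249 with sgPHF8-1 and 168, 156 and 166 with sgPHF8-3. Again all the sgPHF8-1 libraries were above the controls and all the sgPHF8-3 libraries below them. The log2 difference between the guides was 0.62 ± 0.084 (adjusted p = 1.32e-05), with 0.30 ± 0.079 (adjusted p = 0.0052) for sgPHF8-1 against sgScr and -0.33 ± 0.086 (adjusted p = 0.00784) for sgPHF8-3 against sgScr. The last of these missed the threshold in DESeq2 (adjusted p = 0.0531) and without sgScr library A (log2 fold change -0.28, adjusted p = 0.0515). The matched elements of CDKN1A and BTG2 shown above each had 2 mismatches and lay upstream of the canonical start.

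MDM2, at chr12:69201957-69239324 on the plus strand, encodes the ubiquitin ligase that marks p53 for destruction, and was higher with sgPHF8-1. It was counted at 4066, 4052 and 4118 with sgScr, at 4985, 5074 and 5018 with sgPHF8-1 and at 4335, 4277 and 4293 with sgPHF8-3. The 3 groups did not overlap, with sgPHF8-3 between the others. The log2 fold change was 0.30 ± 0.029 (adjusted p = 7.88e-09) with sgPHF8-1 and 0.22 ± 0.029 (adjusted p = 7.40e-06) between the guides, and for sgPHF8-3 against sgScr it was 0.077 ± 0.029 (adjusted p = 0.0651), which did not pass. That last value passed when the groups compared were fitted alone (adjusted p = 0.0374) and without sgPHF8-1 library B (adjusted p = 0.0348), although neither changed the fold.

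GADD45A and PLK2 went the other way between the guides. GADD45A, a stress sensor that binds p21 and PCNA, rose with both guides, and more with sgPHF8-3. Its counts were 2411, 2364 and 2311 with sgScr, 3107, 2985 and 3275 with sgPHF8-1 and 3471, 3507 and 3392 with sgPHF8-3. The groups were fully separated in that order. The log2 fold change was 0.40 ± 0.036 (adjusted p = 1.76e-09) with sgPHF8-1, 0.55 ± 0.035 (adjusted p = 3.95e-11) with sgPHF8-3 and -0.15 ± 0.035 (adjusted p = 0.00671) between the guides. PLK2, a polo-like kinase that acts at the centrosome, followed the same order at 7804, 7784 and 7599 with sgScr, 8621, 8156 and 8466 with sgPHF8-1 and 9067, 9071 and 9011 with sgPHF8-3. Its log2 fold changes were 0.12 ± 0.030 (adjusted p = 0.00221), 0.23 ± 0.029 (adjusted p = 2.75e-06) and, between the guides, -0.10 ± 0.029 (adjusted p = 0.021). The difference of PLK2 between the guides missed the threshold without sgPHF8-1 library B (log2 -0.080, adjusted p = 0.0587), without sgPHF8-3 library B (adjusted p = 0.0838) and with these groups alone (adjusted p = 0.0551).

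CCNG1, the cyclin G1 that forms part of the negative feedback on p53, rose with both guides, by 0.23 ± 0.033 (adjusted p = 6.82e-06) with sgPHF8-1 and 0.13 ± 0.033 (adjusted p = 0.00614) with sgPHF8-3 on the log2 scale. Its difference between the guides was 0.097 ± 0.033 (adjusted p = 0.0632) and did not pass, but it passed without sgPHF8-1 library C (log2 0.13, adjusted p = 0.0129). The kinase PLK3 and the phosphatase PPM1D, which dephosphorylates p53, were called in none of the comparisons, with log2 differences between the guides of 0.13 ± 0.066 and -0.040 ± 0.068.

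**Figure D3:**
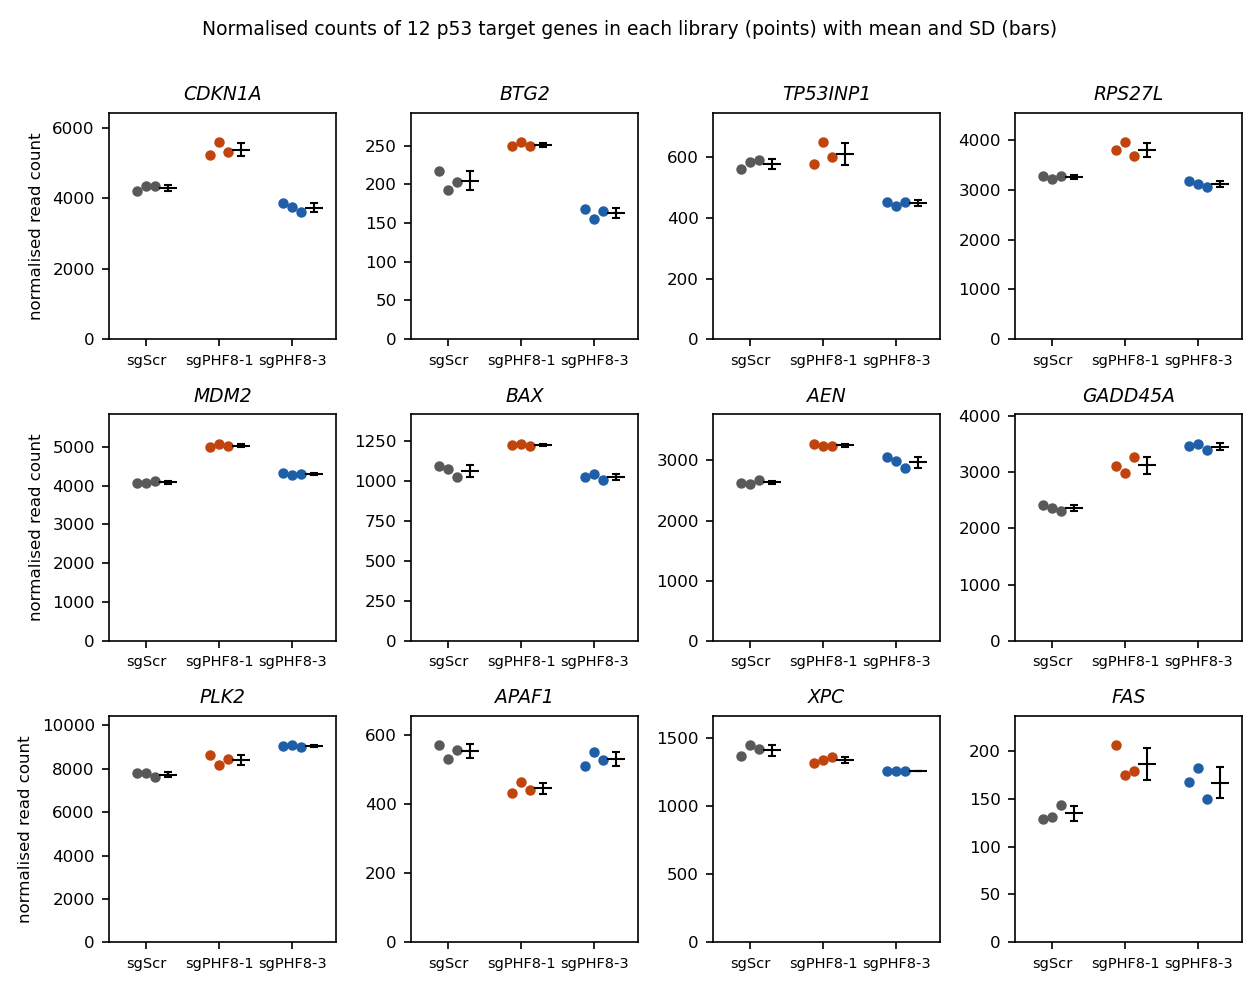
Normalised read count (vertical axes, from 0) of 12 members in each library, 3 points per guide in the order A, B, C, with the mean and SD beside them as bars. CDKN1A and BTG2 are above the sgScr points with sgPHF8-1 and below them with sgPHF8-3, GADD45A and PLK2 are highest with sgPHF8-3, and APAF1 is lowest with sgPHF8-1.

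Of the 9 members that act in apoptosis, 5 were higher with sgPHF8-1 than with sgPHF8-3 and 1 was lower. BAX, which opens the outer membrane of mitochondria, was counted at 1095, 1073 and 1023 with sgScr, 1225, 1233 and 1221 with sgPHF8-1 and 1027, 1042 and 1009.5 with sgPHF8-3. The sgPHF8-1 libraries were above the other 6, which overlapped each other. Its log2 difference between the guides was 0.26 ± 0.040 (adjusted p = 8.23e-05), and its log2 fold change was 0.21 ± 0.039 (adjusted p = 1.89e-04) with sgPHF8-1 and -0.052 ± 0.040 (adjusted p = 0.4) with sgPHF8-3.

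TNFRSF10B, the death receptor DR5 for the ligand TRAIL, had the same pattern, at 4085, 4019 and 4133 with sgScr, 4566, 4667 and 4552 with sgPHF8-1 and 4189, 4197 and 4002 with sgPHF8-3. The sgPHF8-1 libraries were above the other 6, with a log2 fold change of 0.17 ± 0.030 (adjusted p = 8.66e-05) against sgScr and 0.15 ± 0.031 (adjusted p = 0.00143) against sgPHF8-3. AEN, a nuclease that acts in apoptotic DNA breakdown, was called in all 3 comparisons. It was counted at 2627, 2605 and 2667 with sgScr, 3275, 3237 and 3237 with sgPHF8-1 and 3055, 2985 and 2875 with sgPHF8-3. The groups did not overlap, with sgPHF8-3 in the middle. AEN rose by 0.30 ± 0.032 (adjusted p = 3.75e-08) with sgPHF8-1 and 0.17 ± 0.032 (adjusted p = 2.86e-04) with sgPHF8-3 on the log2 scale, and the difference between the guides was 0.13 ± 0.032 (adjusted p = 0.00901). Without sgPHF8-3 library C that difference was 0.11, with an adjusted p of 0.064.

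TP53INP1 and TP53I3 also differed between the guides, and here the sgPHF8-3 libraries were the ones that stood apart. TP53INP1 promotes the phosphorylation of p53 and autophagy, and its counts were 559, 582 and 591 with sgScr, 578, 649 and 600.4 with sgPHF8-1 and 454, 438 and 454 with sgPHF8-3. The sgPHF8-1 and sgScr libraries overlapped, and the sgPHF8-3 libraries lay below both. The log2 fold change of TP53INP1 was -0.37 ± 0.056 (adjusted p = 3.33e-05) with sgPHF8-3 and 0.075 ± 0.054 (adjusted p = 0.32) with sgPHF8-1, and the difference between the guides was 0.44 ± 0.057 (adjusted p = 7.27e-06). TP53I3, a quinone oxidoreductase that generates reactive oxygen species, was counted at 602, 562 and 574 with sgScr, 553, 577 and 600.4 with sgPHF8-1 and 508, 509 and 514 with sgPHF8-3. Its sgPHF8-3 libraries were below the other 6, with log2 values of -0.18 ± 0.054 (adjusted p = 0.0159) for sgPHF8-3 against sgScr and 0.18 ± 0.054 (adjusted p = 0.036) between the guides. The difference of TP53I3 between the guides lost the call in 8 of 15 alternatives, among them DESeq2 (adjusted p = 0.135) and leaving out sgPHF8-1 library B or C or any 1 of the 3 sgPHF8-3 libraries (log2 0.14 to 0.18, adjusted p 0.0516 to 0.138). Its sgPHF8-3 value against sgScr was lost in DESeq2 (adjusted p = 0.0832), without sgPHF8-3 library B (-0.18, adjusted p = 0.0534) and without sgScr library A (-0.16, adjusted p = 0.0859).

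APAF1, the scaffold of the apoptosome that activates caspases, was the single member that fell with sgPHF8-1. It was counted at 571, 532 and 558 with sgScr, 434, 464 and 442 with sgPHF8-1 and 511, 550.4 and 529.6 with sgPHF8-3. The sgPHF8-1 libraries were below all others, while sgPHF8-3 and sgScr overlapped. The log2 fold change was -0.31 ± 0.056 (adjusted p = 1.11e-04) with sgPHF8-1 and -0.063 ± 0.054 (adjusted p = 0.463) with sgPHF8-3, and -0.25 ± 0.057 (adjusted p = 0.00556) between the guides.

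PMAIP1, which encodes the BH3-only protein NOXA, and FAS, the receptor for FAS ligand, rose with both guides and were not called between them. PMAIP1 rose by 0.22 ± 0.038 (adjusted p = 5.95e-05) with sgPHF8-1 and 0.20 ± 0.038 (adjusted p = 5.81e-04) with sgPHF8-3 on the log2 scale, with a difference of 0.027 ± 0.038 (adjusted p = 0.733). FAS, at 135 ± 7.70 (SD, n = 3) normalised counts in sgScr, rose by 0.47 ± 0.10 (adjusted p = 6.88e-04) and 0.31 ± 0.10 (adjusted p = 0.0335), with a difference of 0.16 ± 0.098 (adjusted p = 0.336). The sgPHF8-3 call for FAS was lost in DESeq2 (adjusted p = 0.128) and without any one of sgScr library A, sgScr library B, sgPHF8-3 library A or sgPHF8-3 library B, at log2 values from 0.24 to 0.31 and adjusted p from 0.0782 to 0.171. BBC3, which encodes PUMA, another BH3-only protein, was called in no comparison, with a log2 difference between the guides of 0.16 ± 0.076 (adjusted p = 0.213).

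Of the 4 members of DNA repair, 1 was called between the guides. RRM2B, the p53-induced small subunit of ribonucleotide reductase, supplies deoxynucleotides for repair and was counted at 763, 845 and 801 with sgScr, 849.7, 951 and 840.1 with sgPHF8-1 and 763, 733 and 732 with sgPHF8-3. The guides were apart from each other while each overlapped the controls, and the log2 difference between the guides was 0.24 ± 0.052 (adjusted p = 0.00278). Against sgScr RRM2B stood at 0.13 ± 0.051 (adjusted p = 0.0502) with sgPHF8-1, which passed when sgPHF8-1 library A or C, sgPHF8-3 library C or sgScr library B was left out (0.13 to 0.17, adjusted p 0.03 to 0.0488) and under the replicate block (adjusted p = 0.0465), and at -0.11 ± 0.052 (adjusted p = 0.134) with sgPHF8-3. XPC, which recognises damage in nucleotide excision repair, fell with sgPHF8-3 (-0.17 ± 0.037, adjusted p = 0.00197). XPC was at -0.075 ± 0.036 (adjusted p = 0.123) with sgPHF8-1 and its difference between the guides did not pass (0.090 ± 0.037, adjusted p = 0.129). DDB2, also of nucleotide excision repair, and POLH, the polymerase that bypasses ultraviolet lesions, were called nowhere, with differences of 0.088 ± 0.045 and 0.12 ± 0.050.

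Of the 8 members of survival, metabolism and RNA control, 5 were called between the guides, each of them higher with sgPHF8-1. RPS27L, a ribosomal protein paralogue that binds MDM2, was counted at 3275, 3227 and 3286 with sgScr, 3796, 3960.4 and 3682 with sgPHF8-1 and 3183, 3127 and 3069.9 with sgPHF8-3. The sgPHF8-1 libraries were above the controls and the sgPHF8-3 libraries just below them. The log2 value was 0.29 ± 0.032 (adjusted p = 1.18e-06) between the guides, 0.22 ± 0.032 (adjusted p = 4.59e-06) with sgPHF8-1 and -0.061 ± 0.032 (adjusted p = 0.194) with sgPHF8-3. RPS27L is a close copy of RPS27, and reads that the 2 genes share could have been assigned to either or dropped.

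PHLDA3, which restrains the kinase AKT, gave counts of 1271, 1284 and 1286 with sgScr, 1461, 1444 and 1448 with sgPHF8-1 and 1228, 1245 and 1143 with sgPHF8-3. The groups were separated, with sgPHF8-1 highest and sgPHF8-3 lowest. PHLDA3 differed by 0.27 ± 0.038 (adjusted p = 3.19e-05) between the guides, by 0.18 ± 0.038 (adjusted p = 5.20e-04) with sgPHF8-1 and by -0.086 ± 0.038 (adjusted p = 0.12) with sgPHF8-3. ZMAT3, a zinc finger protein that binds RNA and alters splicing, was counted at 1462, 1489.7 and 1506 with sgScr, 1604, 1801 and 1742 with sgPHF8-1 and 1437, 1421 and 1526 with sgPHF8-3. The sgPHF8-1 libraries were above the other 6, and the difference between the guides was 0.23 ± 0.041 (adjusted p = 4.05e-04), with 0.21 ± 0.040 (adjusted p = 2.60e-04) for sgPHF8-1 against sgScr.

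FDXR, the ferredoxin reductase of mitochondrial iron-sulphur cluster synthesis, differed between the guides although neither guide differed from sgScr. Its counts were 192, 213 and 178 with sgScr, 212, 235 and 233 with sgPHF8-1 and 158, 184 and 164 with sgPHF8-3. The guides were apart and the controls lay between, overlapping both. The log2 difference between the guides was 0.42 ± 0.093 (adjusted p = 0.00337), against 0.22 ± 0.089 (adjusted p = 0.0603) with sgPHF8-1 and -0.20 ± 0.094 (adjusted p = 0.133) with sgPHF8-3, and the sgPHF8-1 value passed without sgScr library B (0.29, adjusted p = 0.033). TRIAP1, a mitochondrial lipid transfer subunit that inhibits apoptosis, was counted at 821, 849 and 784 with sgScr, 923, 1041 and 916 with sgPHF8-1 and 889, 840.5 and 844 with sgPHF8-3. The sgPHF8-1 libraries were above the rest, with 0.23 ± 0.049 (adjusted p = 8.22e-04) against sgScr and 0.16 ± 0.050 (adjusted p = 0.0378) against sgPHF8-3. The latter call for TRIAP1 was lost in DESeq2 (adjusted p = 0.109), with these groups alone (adjusted p = 0.0609), and without sgPHF8-1 library B, sgPHF8-3 library B or C or sgScr library A (0.10 to 0.16, adjusted p 0.0516 to 0.202).

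GDF15, a secreted stress cytokine, was near the floor of the measurement at 8.36, 5.62 and 6.65 normalised counts with sgScr, 12.8, 10.8 and 19.6 with sgPHF8-1 and 16.7, 12.3 and 6.34 with sgPHF8-3. Its 3 sgPHF8-1 libraries were above the controls, and sgPHF8-3 library C fell among them. The fitted log2 fold change was 1.06 ± 0.39 (adjusted p = 0.0395) with sgPHF8-1 and 0.78 ± 0.41 (adjusted p = 0.19) with sgPHF8-3, and the first was lost in 7 of 14 alternatives: without sgPHF8-1 library A or C, sgPHF8-3 library B or any 1 of the 3 sgScr libraries (0.78 to 1.22, adjusted p 0.0511 to 0.208), and in limma on log2 normalised counts (0.94, adjusted p = 0.0514). SESN1, a sestrin that inhibits mTORC1, and SPATA18, a mitochondrial quality control protein also called MIEAP, were called in no comparison, with differences between the guides of 0.18 ± 0.092 and 0.22 ± 0.19. SPATA18 had 41.9 ± 3.78 (SD, n = 3) normalised counts in sgScr, so that only large changes could have been seen.

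The members' calls fell into 11 combinations over the 3 comparisons. The most frequent was higher with sgPHF8-1 than in both other groups with no call for sgPHF8-3 against sgScr, which held for 7 members: MDM2, BAX, TNFRSF10B, ZMAT3, PHLDA3, TRIAP1 and RPS27L. No call in any comparison held for 7 members as well: PLK3, PPM1D, BBC3, DDB2, POLH, SESN1 and SPATA18. CDKN1A and BTG2 were the 2 members called in opposite directions against sgScr.

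When the mean of both guides was set against sgScr, 14 of 29 members were called, 11 higher and 3 lower, against 29.6% of all genes, 14.7% higher and 14.9% lower. The study's methods compared sgRNA samples with control samples, and its RNA result for E2F1 is given for each guide separately. Whether the study combined the guides in this way is not stated. Fitted values of the guides on opposite sides of the control offset each other in such a mean, fully or in part. RPS27L and TP53INP1, fitted on opposite sides, were still called. RPS27L stood at 0.082 ± 0.028 (adjusted p = 0.0281), a call lost in 7 of 14 alternatives. CDKN1A stood at 0.062 ± 0.029 (adjusted p = 0.106) and BTG2 at -0.015 ± 0.071 (adjusted p = 0.898), and neither was called. GADD45A was higher at 0.48 ± 0.031 (adjusted p = 6.25e-12), FAS at 0.39 ± 0.088 (adjusted p = 0.0013), AEN at 0.24 ± 0.028 (adjusted p = 2.28e-07) and PMAIP1 at 0.21 ± 0.033 (adjusted p = 2.44e-05). APAF1 was lower at -0.19 ± 0.047 (adjusted p = 0.0037), TP53INP1 at -0.15 ± 0.047 (adjusted p = 0.0208) and XPC at -0.12 ± 0.031 (adjusted p = 0.00466). Without sgScr library B this count was 9, as GDF15, RPS27L, TNFRSF10B, TP53INP1 and XPC lost their calls, whereas CDKN1A was called without sgPHF8-3 library C (0.075, adjusted p = 0.0476). TP53INP1 lost its call in 4 of 14 alternatives, which were DESeq2 and leaving out sgPHF8-1 library A, sgScr library B or sgScr library C (-0.15 to -0.13, adjusted p 0.0556 to 0.104).

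The level of the members in the control cells spanned a wide range when the normalised count was divided by the length of the canonical transcript. PLK2 was highest at 2774 normalised counts per kilobase, followed by CDKN1A at 2030.2, GADD45A at 1747 and CCNG1 at 1678. MDM2 stood at 545, BTG2 at 74.9 and FAS at 52.5, and SPATA18 at 9.45 and GDF15 at 5.73 were lowest. These ratios assume that the canonical transcript is the one expressed, which was not tested.

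Members with and without a matched response element were found on both sides of the comparison of the guides. Of the 12 members with a match, 6 were called higher and 2 lower with sgPHF8-1 than with sgPHF8-3, with a median log2 difference of 0.19. Of the 17 without one (FAS, which was not scanned, among them), 8 were called higher and 1 lower, with a median of 0.16. The difference between these medians was not tested. GADD45A and PLK2, with matches of 1 and 0 mismatches, were called lower, whereas ZMAT3, with a match of 0 mismatches, was called higher. Exons of 9 members overlap those of another tested gene, by 1.60% of the exonic bases for MDM2 (with CPM), 10.7% for FAS (with ACTA2) and 18.4% for PHLDA3 (with ENSG00000224818). The overlap of PHLDA3 is with a gene on the same strand, and those of the other 8 are with genes on the opposite strand. Whether the reads were counted by strand is not given in the sources used here, so for these 8 some reads may belong to the neighbour; on the same strand a strand setting could not separate them.

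Of 23 tested regulators of p53, 6 were called between the guides, each of them lower with sgPHF8-1, where 5.83% of all genes were lower and 10.6% were called. Against sgScr 4 were higher and 7 lower with sgPHF8-1 (15.2% and 15.7% of all genes), and 3 were higher and 3 lower with sgPHF8-3 (9.48% and 9.78%). The sgPHF8-3 total of 6 was 3 without sgScr library B and 3 without sgPHF8-3 library A. Its 3 lower were 1 in DESeq2, in limma and without sgScr library A or B, and its 3 higher were 1 without sgPHF8-3 library A. MDM4, the partner of MDM2, stood at -0.10 ± 0.044 (adjusted p = 0.0823) with sgPHF8-1, -0.012 ± 0.044 (adjusted p = 0.891) with sgPHF8-3 and -0.091 ± 0.045 (adjusted p = 0.216) between the guides, and the first of these passed without sgScr library A, sgPHF8-1 library C or sgPHF8-3 library C (-0.14 to -0.10, adjusted p 0.0222 to 0.0466), with no filter on low counts (adjusted p = 0.0351) and under the replicate block (adjusted p = 0.0383). The checkpoint kinase CHEK2, the acetyltransferase EP300 and the DNA-dependent kinase PRKDC were lower with sgPHF8-1 than with sgPHF8-3, with log2 differences of -0.29 ± 0.091 (adjusted p = 0.041), -0.28 ± 0.063 (adjusted p = 0.00417) and -0.21 ± 0.047 (adjusted p = 0.00466). The number called ranged from 2 to 6 over the alternatives, with 2 in DESeq2, 2 without sgPHF8-1 library A, 2 without sgPHF8-3 library C, 3 without sgPHF8-3 library A and 3 without sgScr library C, and CHEK2 lost its call in DESeq2 (adjusted p = 0.133) and without sgScr library C or any 1 library of either guide (adjusted p 0.0535 to 0.0994). PRKDC lost its call in DESeq2 (-0.21, adjusted p = 0.0709).

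A wider list of 67 other genes reported to be induced by p53 gave 58 tested genes, of which 10 were called higher and 3 lower with sgPHF8-1 than with sgPHF8-3 (4.74% and 5.83% of all genes), with a median log2 difference of 0.059. The same list gave 18 higher and 9 lower with sgPHF8-1 against sgScr (15.2% and 15.7% of all genes), and 5 higher and 11 lower with sgPHF8-3 against sgScr (9.48% and 9.78%). As shares of the 58 tested genes, the 9 lower with sgPHF8-1 and the 5 higher with sgPHF8-3 were near those of all genes. The 18 higher were 9 in DESeq2 and 11 without sgScr library A. The 5 higher were 3 in DESeq2 and without any 1 of the 3 sgScr libraries or sgPHF8-3 library B. DRAM1, a lysosomal membrane protein of autophagy, was higher with sgPHF8-1 than with sgPHF8-3 by 0.31 ± 0.046 (adjusted p = 4.64e-05). TRIM22, an antiviral ubiquitin ligase, differed by 0.30 ± 0.065 (adjusted p = 0.00278), and TIGAR, which lowers glycolytic flux, by 0.22 ± 0.057 (adjusted p = 0.0142). DRAM1 and TIGAR were higher with sgPHF8-1 than with sgScr (0.41 ± 0.046 and 0.28 ± 0.057), while TRIM22 was at -0.0036 ± 0.061 with sgPHF8-1 and lower with sgPHF8-3 (-0.31 ± 0.064, adjusted p = 0.00105). The number called between the guides was 7 in DESeq2 and 5 without sgPHF8-3 library B, the 10 higher were 6 without sgPHF8-3 library C, and TIGAR lost its call in DESeq2, without sgPHF8-3 library B and without sgPHF8-1 library B or sgPHF8-3 library C (0.18 to 0.22, adjusted p 0.0576 to 0.0826). SESN2 stands both in this list and in that of the ATF4 targets. The difference between this list's median and that of the 29 members was not tested.

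Genes that p53 represses indirectly were also counted. p21 keeps the retinoblastoma-related proteins unphosphorylated, and these assemble the DREAM complex, which silences cell cycle genes. Of 15 such genes, 7 were called between the guides, each of them lower with sgPHF8-1, where 5.83% of all genes were lower, and all 15 fitted log2 differences were below 0, with a median of -0.10. CENPF, a kinetochore protein, differed by -0.23 ± 0.039 (adjusted p = 2.14e-04), the transcription factor FOXM1 by -0.16 ± 0.032 (adjusted p = 0.00157) and the checkpoint kinase CHEK1, which is also one of the regulators above, by -0.16 ± 0.050 (adjusted p = 0.0416). Against sgScr 3 were called higher and 3 lower with sgPHF8-1 (15.2% and 15.7% of all genes), and 8 were called with sgPHF8-3, each of them higher (9.48% of all genes). The 6 called with sgPHF8-1 were 2 without sgScr library B or sgPHF8-1 library A, and 3 without sgScr library A or C, in DESeq2 and with no filter on low counts. The 8 called with sgPHF8-3 were 5 without sgScr library A. The number called between the guides was 4 in DESeq2, with no filter on low counts and with the guides alone, 3 without sgPHF8-3 library B, and 4 without sgScr library A, sgPHF8-1 library C, sgPHF8-3 library A or sgPHF8-3 library C. CHEK1 lost its call in 11 of the 15 alternatives, the replicate block among them (adjusted p = 0.0567).

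The targets of ATF4, the factor of the integrated stress response, which shares some targets with p53, were counted as a last list. Of its 10 genes, 9 were higher and 1, DDIT4, was lower with sgPHF8-1 than with sgScr, where 30.9% of all genes were called. With sgPHF8-3 8 were higher and 1, again DDIT4, was lower, where 19.3% of all genes were called. Between the guides, where 10.6% of all genes were called, 3 were, all lower with sgPHF8-1: ATF3 (-0.37 ± 0.11, adjusted p = 0.0369), TRIB3 (-0.16 ± 0.035, adjusted p = 0.00417) and DDIT4 (-0.15 ± 0.043, adjusted p = 0.0208). A single gene was called in DESeq2, without sgPHF8-1 library A and without sgPHF8-3 library A, and ATF3 lost its call without sgPHF8-1 library A or C or sgPHF8-3 library A or C (-0.40 to -0.29, adjusted p 0.0607 to 0.149) and in limma (-0.36, adjusted p = 0.0516). DDIT4 lost its call in DESeq2 (adjusted p = 0.0583), without sgPHF8-1 library A (adjusted p = 0.153) and without sgPHF8-3 library A (adjusted p = 0.137). The rise of ATF3 with sgPHF8-1 against sgScr was lost in DESeq2 and without sgScr library B or C or sgPHF8-1 library A or B (0.31 to 0.38, adjusted p 0.0673 to 0.107). ATF3 is a stress-induced transcription factor, TRIB3 a pseudokinase and DDIT4 an inhibitor of mTORC1. GADD45A and PLK2 were higher than sgScr with both guides and highest with sgPHF8-3. TRIB3 and ATF3 of the ATF4 list had the same fitted order, and 7 of the list's 10 genes were not called between the guides. Whether the rise of GADD45A and PLK2 goes with ATF4 or p53 was not tested.

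**Figure D4:**
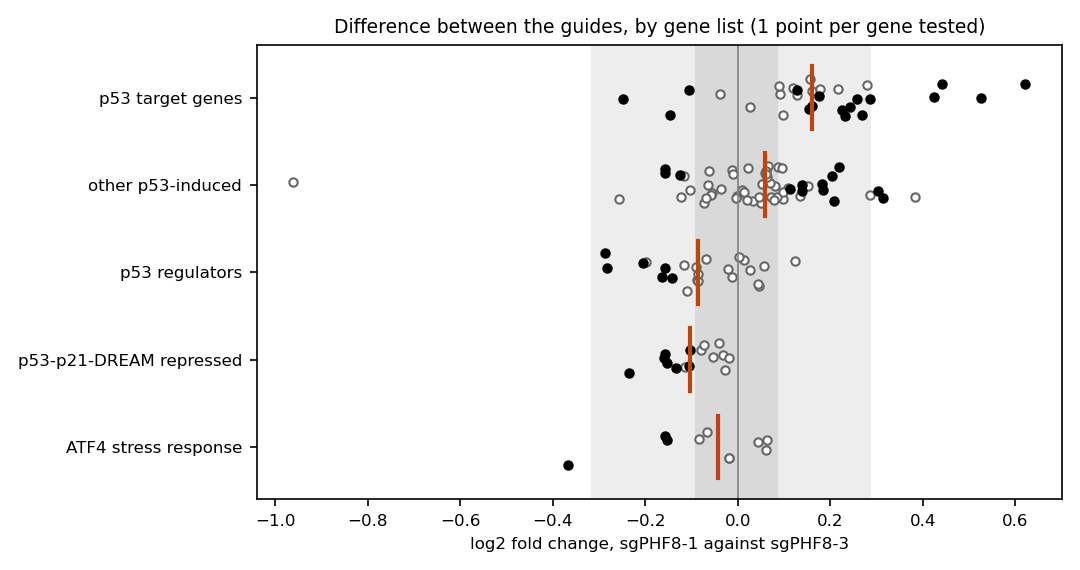
Log2 fold change of sgPHF8-1 against sgPHF8-3 (horizontal axis) for each tested gene of 5 lists; filled points have an adjusted p under 0.05, the upright bar is the list's median, the dark band holds the middle 50% of all genes tested and the light band the middle 90%. The medians are 0.16 for the p53 target genes and 0.059 for the other p53-induced genes, and they are below 0 for the p53 regulators, the genes repressed through p21 and DREAM and the ATF4 targets.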

How the data were processed

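Ribosomal RNA was removed from the total RNA of 3 biological replicates per guide, and the libraries were sequenced as paired ends. Per the labels and the study's methods, the authors aligned the reads with STAR to build hg19 and counted them per gene with HTSeq; the annotation and the strand setting are not given in the sources used here. The deposited raw table holds whole read counts per Ensembl gene (17366120 to 19838142 per library, common biological coefficient of variation 2.87%). The deposited normalised table (the signal column type, called normalised counts here) holds, by symbol, those counts divided by a DESeq2 size factor: multiplied back, 100% of values were whole within 0.01 and equal to the raw counts, so the count test on recovered reads is the test on the raw table, and its counts of called genes are 4513, 2814 and 1544 for sgPHF8-1 against sgScr, sgPHF8-3 against sgScr and sgPHF8-1 against sgPHF8-3.

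Genes were filtered with filterByExpr, scaled by TMM and fitted in edgeR 4.0.16 (R 4.3.3) with glmQLFit over the 3 groups; contrasts were tested with glmQLFTest and adjusted by the Benjamini-Hochberg method over all 14614 genes, with a threshold of 0.05. The fit was tested on simulated data. The standard error is the absolute log2 fold change divided by the square root of the F statistic. Alternatives were RLE size factors, DESeq2 1.42.0, no filter on low counts, the replicate letter as a block, fits of the groups compared alone, limma 3.58.1 on the log2 of the deposited normalised count plus 1, and leaving out each library. All 29 members are named; beside them PHF8 and MDM4, and from each further list at most 3 genes, those with the largest called log2 difference between the guides; NGFR, SOX10, MITF, SOX9, AXL and KRT14 are named as markers. A further gene covered by this rule is not reported here. Every library's value is given for the members called between the guides and for CDKN1A and MDM2. The members and the lists were chosen with earlier results of these data known. Start sites and exons are those of the GENCODE annotation lifted to GRCh37. No 2 libraries of the same group agreed within sampling noise.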

Additional observations from a re-analysis of the deposited data

Results flagged for a closer look

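For 17 of the 29 members the effects of the guides differed from each other in the direct test of sgPHF8-1 against sgPHF8-3 (edgeR quasi-likelihood test, Benjamini-Hochberg adjusted p under 0.05), where 10.6% of all genes tested did. The log2 difference, sgPHF8-1 minus sgPHF8-3, was 0.62 for BTG2, 0.53 for CDKN1A, 0.44 for TP53INP1 and 0.42 for FDXR. It was 0.29 for RPS27L, 0.27 for PHLDA3, 0.26 for BAX, 0.24 for RRM2B, 0.23 for ZMAT3 and 0.22 for MDM2. It was 0.18 for TP53I3, 0.16 for TRIAP1, 0.15 for TNFRSF10B and 0.13 for AEN. It was below 0 for APAF1 at -0.25, for GADD45A at -0.15 and for PLK2 at -0.10.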

How the results depend on the processing

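No called value changed sign under any alternative run. Of the 17 members called between the guides, 13 kept the call in all 15 alternatives, and AEN, PLK2, TP53I3 and TRIAP1 lost it at least once. Of those called with sgPHF8-1 against sgScr 16 of 17 kept it (GDF15 did not), with sgPHF8-3 against sgScr 8 of 11 (BTG2, FAS and TP53I3 did not), and with both guides against sgScr 8 of 14 over 14 alternatives. Under DESeq2 the number of genes called was 1686 instead of 2814 for sgPHF8-3 against sgScr, 902 instead of 1544 between the guides, and 2870 instead of 4321 for both guides; the cause was not tested. Leaving out each library in turn gave 923 to 1467 genes between the guides (923 without sgPHF8-3 library B and 983 without sgPHF8-3 library C) and 9 to 15 members for both guides, 9 of them without sgScr library B, with fewer samples in each such fit. With the replicate block, the letter as a term, 18, 11, 17 and 14 members were called for sgPHF8-1 against sgScr, sgPHF8-3 against sgScr, between the guides and for both guides, and 1481 genes between the guides. Same-letter libraries deviated from their group means with correlations of -0.17 to 0.11 over 9 pairs, and other-letter libraries with -0.19 to 0.26. These correlations showed no pairing by letter, but with 3 libraries per group they cannot exclude one. Under the block the call changed for RRM2B with sgPHF8-1 (adjusted p = 0.0465) and, for both guides, for ZMAT3 (adjusted p = 0.0439) and GDF15 (adjusted p = 0.0568), and for no other member; of the other values printed, it changed for MDM4 with sgPHF8-1 (adjusted p = 0.0383) and, between the guides, for CHEK1 (adjusted p = 0.0567) and AXL (adjusted p = 0.0591). The alternatives for the further lists and their named genes were chosen after seeing the data. DESeq2 gave no adjusted p for GDF15. Depth limits GDF15 and SPATA18 most.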
